A study of Mus musculus with 2 samples.

Results

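The genes described here form the antioxidant programme of NRF2 and the enzyme systems that work beside it: regulators, glutathione synthesis and transfer, thioredoxins, peroxiredoxins, superoxide dismutases, peroxidases and the suppliers of NADPH. They are 42 genes picked by symbol, 42 of 42 found in a deposited table of 54713 rows, and they fall into 9 roles. RNA was sequenced from 2 stable sublines of SV40 MES13, a mouse kidney mesangial line immortalised with SV40, with 1 library per group. The control library came from cells given the control lentivirus (Lv_NC, genotype WT) and the other from cells given the lentivirus for the long noncoding RNA AI662270 (Lv_AI662270, genotype given as lncRNA AI662270 overexpression). Both groups carried a virus, were selected with 0.5 mg/ml puromycin, were kept in 0.25 mg/ml puromycin with 10% serum and are labelled untreated. No source used here says which promoter drove the insert or whether a subline was a clone or a pool. In one place the protocol text gives the name of the cell line where the insert of the AI662270 virus should stand, and it names Sox9, not AI662270, as the gene checked by qRT-PCR after selection.

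The control library held 15727023 counts and the AI662270 library 15062482. AI662270 itself had 0 counts in the control library, where 0 allows up to 3 counts, and 241 in the other, at least 78.4-fold higher against that floor, with a lower limit of 63.3-fold by the exact counting interval. With 1 library on each side there is no replicate to check a difference against, so every comparison is between these libraries, not the conditions. Levels are CPM (counts scaled to a common depth with TMM factors), paired values run control first, and the range after a fold is a 95% exact counting interval, which covers counting error only. Since the RNA is bulk, fewer cells that express a gene and less RNA per cell cannot be told apart. Markers of the labelled cell type were uneven. Of 8 mesangial markers Itga8 and Thy1 had 0 counts in both libraries, Pdgfrb had 185 and 338 counts, Des 26 and 58, Tagln 2 and 4, Vim 3360 and 8872 and Acta2 12 and 171. Gata3, with 76 and 25 counts, was 3.12-fold lower (1.96 to 5.11). The list summed to 240.8 and 607.7 CPM, of which Vim alone made 221.0 and 569.4. Of the podocyte markers Nphs1 had 0 counts in both libraries, Wt1 had 0 and 22 and Synpo 394 and 614. Tubule markers summed to 45.6 and 47.5 CPM, all of it Lrp2. That list is short and does not bound the epithelial signal. The epithelial genes Cdh16 and Krt18, outside it, averaged 304 and 555 CPM over the libraries, with log2 ratios of -0.20 and -1.26. Endothelial markers summed to 0.592 and 1.41 CPM, and leukocyte markers to 34.4 and 14.6 CPM. Of the leukocyte markers Adgre1 was at 0, Ptprc had 5 and 1 counts, Cd68 99 and 76, and Csf1r 419 and 150, 2.86-fold lower (2.37 to 3.47). The part of these shifts in the values below was not tested.

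NRF2, encoded by Nfe2l2, is a transcription factor that KEAP1 holds for destruction until oxidants or electrophiles modify KEAP1. Freed NRF2 pairs with a small MAF protein and binds antioxidant response elements in front of genes for glutathione synthesis, quinone reduction, heme breakdown and NADPH production. Glutathione and thioredoxin are parallel carriers of reducing power, and both are recharged with NADPH. In the kidney mesangium the programme has been studied as a defence against the oxidants of diabetic and inflammatory glomerular disease.

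The antioxidant response element has the core TGACNNNGC, and the related form TGANTCAGC, which is one case of that core when its N is C, contains TGANTCA, the site of AP-1 factors such as FOS and JUN. Promoter windows from RefSeq (GRCm38.p6, from 250 bases before to 50 after a gene start, both strands searched) were matched for 35 of the 42 genes, in 47 windows. The genes with no match were Abcc1, Prdx6, Sod3, Gsta4, Gsr, Gclc and Hmox1. TGACNNNGC stood in 10 of the 47 windows (21.3%), those of G6pdx, Gclm, Mafg, Me1, Nfe2l2, Pgd, Prdx1, Sod1, Srxn1 and Txnrd1, against 12.4% of all 32851 windows. TGANTCAGC stood in 4 (8.51%) against 1.19% of all windows, and TGANTCA in the same 4 windows against 7.81%. A match is a description of letters, and several of the genes are in the set because they are known NRF2 targets. All 4 windows with TGANTCAGC are shown. These windows belong to the NRF2 target that was lowest in the AI662270 library (Osgin1), the gene with the highest level per kilobase in that library (Prdx1), and a pair at intermediate values (Srxn1 and Me1). Each is written 5′ to 3′ on the strand of the gene, with the match in capitals, read as its reverse complement in Prdx1 and Osgin1. Positions count from the gene start, and the match began at -99 in Osgin1, -133 in Prdx1, -45 in Srxn1 and -6 in Me1, where the strand is minus; the other 3 lie on the plus strand.
Osgin1, chr8:119436897-119437196: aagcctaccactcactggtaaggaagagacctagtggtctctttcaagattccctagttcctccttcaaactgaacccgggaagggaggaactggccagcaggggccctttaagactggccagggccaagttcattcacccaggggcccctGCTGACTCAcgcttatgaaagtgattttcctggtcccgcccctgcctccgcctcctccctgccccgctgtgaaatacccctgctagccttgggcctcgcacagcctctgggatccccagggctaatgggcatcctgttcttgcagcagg
Prdx1, chr4:116685349-116685648: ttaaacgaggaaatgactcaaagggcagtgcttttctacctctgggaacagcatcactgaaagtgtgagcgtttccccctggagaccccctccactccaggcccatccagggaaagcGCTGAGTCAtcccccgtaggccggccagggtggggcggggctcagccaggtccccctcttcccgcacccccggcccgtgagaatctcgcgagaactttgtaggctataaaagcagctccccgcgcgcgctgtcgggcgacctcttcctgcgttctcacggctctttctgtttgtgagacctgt
Srxn1, chr2:152105274-152105573: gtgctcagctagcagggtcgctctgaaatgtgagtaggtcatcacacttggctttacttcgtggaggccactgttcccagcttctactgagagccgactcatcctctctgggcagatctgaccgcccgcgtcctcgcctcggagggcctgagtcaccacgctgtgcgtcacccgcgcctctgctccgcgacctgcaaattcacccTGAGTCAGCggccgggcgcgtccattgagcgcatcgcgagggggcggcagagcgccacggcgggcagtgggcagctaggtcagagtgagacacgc
Me1, chr9:86695865-86696164: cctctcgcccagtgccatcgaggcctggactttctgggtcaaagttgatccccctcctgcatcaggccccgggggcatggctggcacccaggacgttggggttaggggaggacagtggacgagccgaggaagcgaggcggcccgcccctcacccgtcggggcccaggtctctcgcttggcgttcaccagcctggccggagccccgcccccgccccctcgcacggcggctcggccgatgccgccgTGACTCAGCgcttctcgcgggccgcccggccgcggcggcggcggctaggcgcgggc
The Osgin1 window stands at a RefSeq start inside the GENCODE span of the gene. The genes behind these windows did not share a direction. Their log2 ratios were -1.47 for Osgin1, 0.87 for Prdx1, 0.54 for Srxn1 and 0.14 for Me1.

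Across the set the main question was which antioxidant genes differed between the library with AI662270 and its control. Of the 42 genes 41 were measured (a mean of at least 1 CPM), and Gpx7 had 0 counts in both libraries. A gene was taken as higher or lower when its log2 ratio, with 0.5 CPM added, reached 1 in size and its counting interval did not contain 1. Sod3 alone was higher, and Nfe2l1, Osgin1, Txnrd2 and Gstm2 were lower, while 36 passed in neither direction. Among all 13268 measured genes 5.59% were higher and 5.72% lower, so the shares here, 2.44% and 9.76%, rest on 1 and 4 genes. Scaled by total counts or by upper quartiles the split was 2 higher and 3 lower, for which no share over all genes was computed. Among the 31 members averaging 50 CPM or more, 0 were higher and 1 was lower, where 1.30% and 5.20% of the 5152 genes at that level in the whole table were. The median log2 ratio was 0.08 over the 41 measured genes and -0.02 over all measured genes. Of the 41, 22 (53.7%) lay above 0 and 19 below, where 48.7% of all measured genes lay above 0. By total counts, upper quartiles and DESeq2 size factors the median over all measured genes was 0.08, 0.05 and 0.02, so signs near 0 move with the scaling. Sod3 and Gpx3 were measured only through the AI662270 library, being under 1 CPM in the control, and the median over the 39 genes of at least 1 CPM in the control was 0.002. The summed level of the 42 genes was 6013 and 5913 CPM. In the authors' deposited table, which also compares 1 library with 1 library, 3 of 41 listed genes had an adjusted p under 0.05, namely Sod3, Osgin1 and Gstm2, against 4.34% of all 20667 genes listed.

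**Figure D1:**
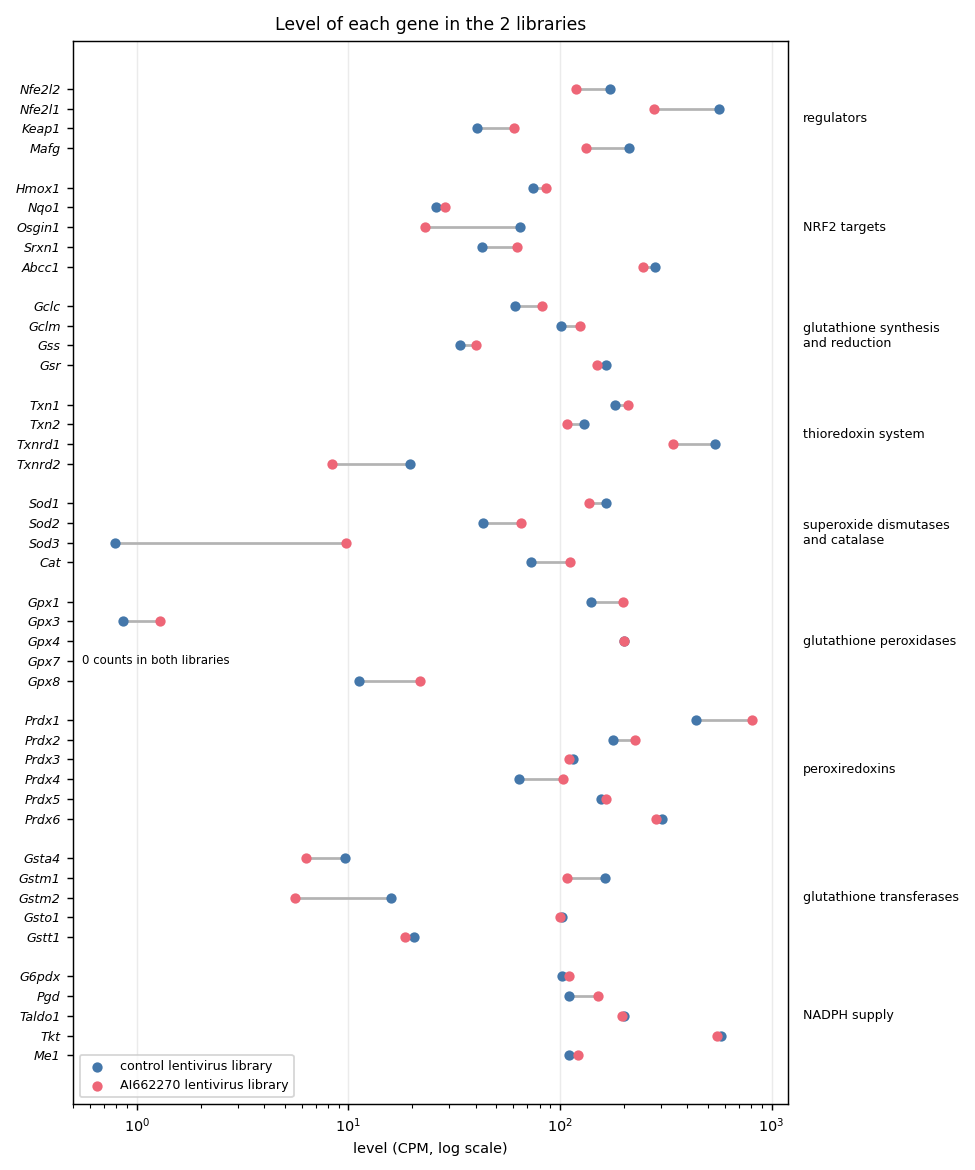
Level of each of the 42 genes in the control library (blue) and the AI662270 library (red), in CPM on a log axis, grouped by role, with a grey line joining the 2 values of a gene. Most pairs lie close together above 10 CPM, Sod3 runs from 0.789 to 9.76 CPM, and Gpx7 has 0 counts in both.

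**Figure D2:**
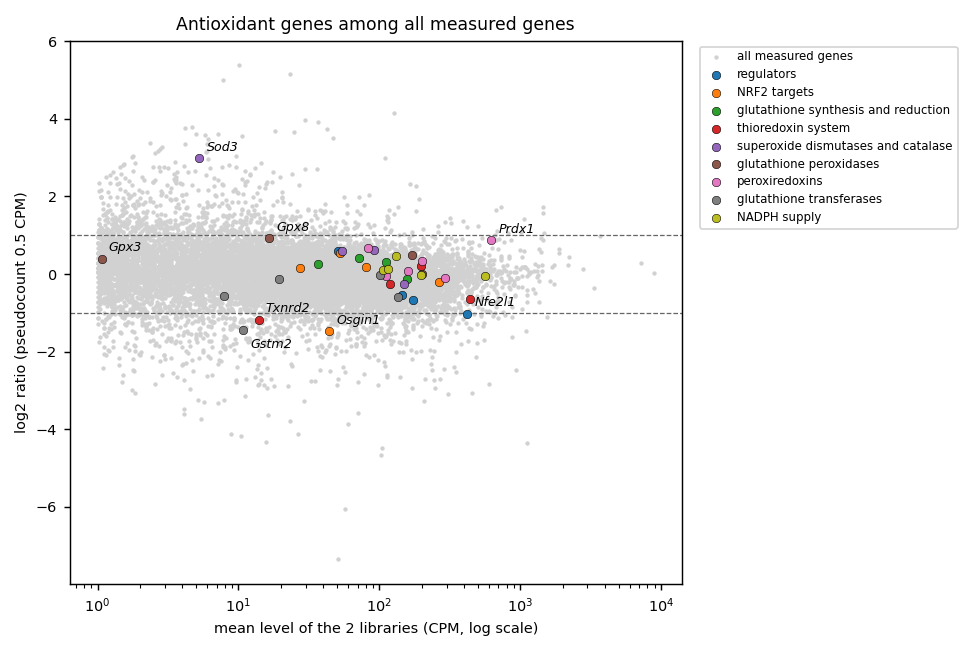
Log2 ratio (AI662270 over control, 0.5 CPM added) against the mean level of the 2 libraries for all 13268 measured genes (grey) and the 41 measured antioxidant genes (coloured by role), with dashed lines at 1 and -1. Sod3 lies above the upper line, and Nfe2l1, Osgin1, Txnrd2 and Gstm2 lie below the lower one.

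Of the 4 regulators 3 were at lower counts in the AI662270 library and the repressor was at a higher one. Nfe2l2 had 2622 and 1850 counts, a level 1.45-fold lower (1.37 to 1.54), short of the 2-fold rule. Its repressor gene Keap1 had 614 and 949 counts, 1.51-fold higher (1.36 to 1.67), although the antisense gene Gm16754, at 14 and 54 counts, overlaps it. Per kilobase of transcript, Nfe2l2 stood at 5.28 times the level of Keap1 in the control library and 2.41 times in the AI662270 library. Nfe2l1, which encodes a relative of NRF2 held at the endoplasmic reticulum and known for inducing proteasome genes, was the highest regulator per kilobase, at 2.28 and 1.63 times Nfe2l2. It lies on chromosome 11 from 96817414 to 96829968 (mm10) and had 8570 and 4327 counts, or 564 and 278 CPM, 2.03-fold lower (1.96 to 2.11). That value sits at the rule's edge: the log2 ratio was -1.02 with TMM scaling and -0.92, -0.95 and -0.99 by total counts, upper quartiles and DESeq2 size factors, under which it did not pass. Mafg, a small MAF partner of NRF2, had 3238 and 2074 counts, 1.60-fold lower (1.51 to 1.69). Together the 4 regulators summed to 989.5 and 590.5 CPM.

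Among 5 classic NRF2 targets only Osgin1 passed the rule, where 5.59% of all measured genes were higher and 5.72% lower. Osgin1, a growth inhibitor induced by oxidative stress, lies on chromosome 8 from 119434124 to 119446256 and had 983 and 360 counts. Its level was 64.7 and 23.1 CPM, 2.80-fold lower (2.48 to 3.17). The 3 measured genes on each side of it, from Cdh13 to Taf1c, had log2 ratios between -0.23 and 0.59, and the 736 measured genes of chromosome 8 had a median of 0.06. Hmox1, the heme oxygenase that opens the heme ring, had 1138 and 1333 counts, a ratio of 1.14 (1.06 to 1.24). Nqo1, the quinone reductase often used as an NRF2 readout, had 393 and 448 counts, and its interval of the ratio contained 1 (0.969 to 1.28). Both of these standard targets lay above 0 on the log2 scale and Osgin1 below it. Srxn1, the sulfiredoxin that repairs overoxidised peroxiredoxins, had 653 and 975 counts, 1.46-fold higher (1.32 to 1.61). Abcc1, an exporter of glutathione conjugates, had 4290 and 3829 counts, 1.15-fold lower (1.10 to 1.20).

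The enzymes that make or recharge glutathione differed by less than 1.5-fold, as did 72.2% of all measured genes. Gclc and Gclm encode the catalytic and modifier subunits of glutamate-cysteine ligase, the rate-limiting step. Gclc had 928 and 1278 counts (1.34-fold higher, 1.23 to 1.46) and Gclm 1529 and 1933 (1.23-fold higher, 1.15 to 1.32). Per kilobase the subunits were near parity, with Gclc at 1.01 times Gclm in the control library and 1.10 times in the other. Gss, the glutathione synthetase gene, had 512 and 624 counts, and it overlaps Acss2, from which unstranded reads cannot be told apart. Gsr, which encodes the reductase that recharges oxidised glutathione, had 2511 and 2342 counts, 1.10-fold lower (1.04 to 1.16). None of the 4 passed the size rule, where 5.59% of all measured genes were higher and 5.72% lower.

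In the thioredoxin system both reductases were at lower counts and the cytosolic carrier was not. Txn1, the cytosolic thioredoxin, had 2756 and 3283 counts, 1.16-fold higher (1.10 to 1.22), and per kilobase it was the highest gene of the set in the control library. Txn2, the mitochondrial thioredoxin, had 1964 and 1686 counts, 1.19-fold lower (1.12 to 1.27). Txnrd1, the cytosolic selenoenzyme that recharges thioredoxin, had 8189 and 5335 counts, 1.57-fold lower (1.52 to 1.63). Eid3, which lies within Txnrd1 on the same strand, had 78 and 13 counts. Txnrd2, the mitochondrial reductase, lies on chromosome 16 from 18426384 to 18479073 and had 296 and 130 counts, or 19.5 and 8.34 CPM. It was 2.33-fold lower (1.89 to 2.89). The 413 measured genes of chromosome 16 had a median log2 ratio of -0.13, against -1.18 for Txnrd2.

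Sod3 had the largest ratio of the set. It encodes the secreted superoxide dismutase that binds to heparan sulfate outside the cell, and it lies on chromosome 5 from 52363791 to 52371418. It had 12 and 152 counts, or 0.789 and 9.76 CPM, and was 12.4-fold higher (6.87 to 24.4). Even at the higher level it ranked 39th of 42 per kilobase. On one side of it the nearest measured genes were Dhx15 (log2 ratio 0.04), 9230114K14Rik (0.96, with 37 and 81 counts) and C130083M11Rik (0.75, with 37 and 69). On the other side they were Ccdc149 (-0.16), Lgi2 (-2.08, with 78 and 13 counts) and Sepsecs (-0.31). No gene with a count overlapped Sod3, and no 50-base stretch of its transcripts occurred in another gene. The intracellular dismutases differed far less. Sod1, the cytosolic copper and zinc enzyme, had 2504 and 2135 counts, 1.20-fold lower (1.13 to 1.27). Sod2, the mitochondrial manganese enzyme, had 657 and 1019 counts, 1.51-fold higher (1.37 to 1.67), with 21% of its 50-base stretches also found in other genes. Per kilobase Sod1 stood at 9.61 times Sod2 in the control library and 5.28 times in the AI662270 library. Cat, the peroxisomal catalase, had 1104 and 1743 counts, 1.54-fold higher (1.43 to 1.66).

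**Figure D3:**
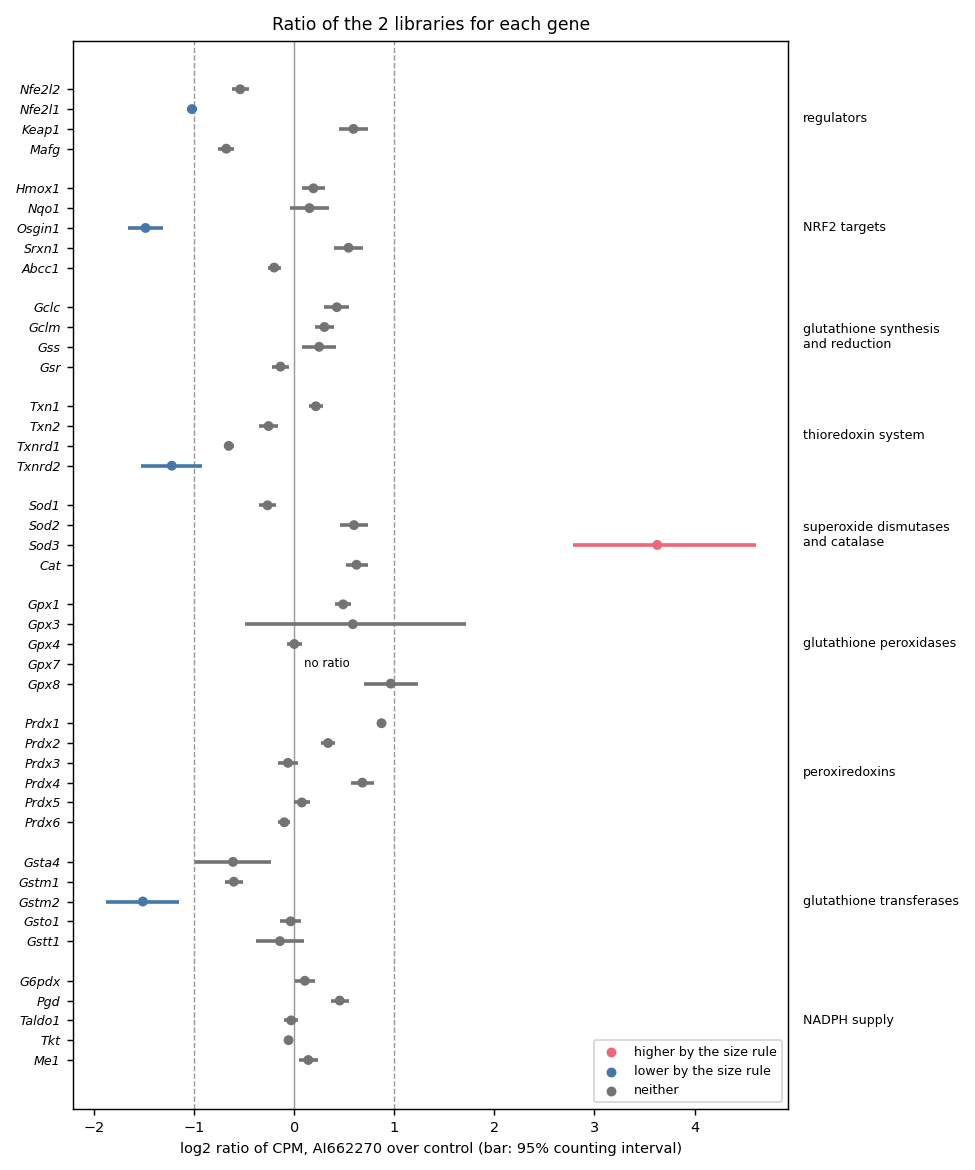
Log2 ratio of CPM, AI662270 over control, for the 41 genes with counts, with 95% counting intervals as bars and dashed lines at 1 and -1, grouped by role. Sod3 (red) stands apart at 12.4-fold higher, Osgin1, Gstm2, Txnrd2 and Nfe2l1 (blue) are lower, and Prdx1 and Gpx8 lie just short of the upper line.

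All 4 measured glutathione peroxidases had log2 ratios above 0, under each of the 4 scalings, but 0 of 4 passed the size rule. With TMM scaling 48.7% of all measured genes lay above 0, and by the size rule 5.59% were higher and 5.72% lower. The intervals of Gpx4 and Gpx3 contained 1. Gpx8, a peroxidase of the endoplasmic reticulum, had 170 and 340 counts, 1.95-fold higher (1.62 to 2.36), and it passed at 1.03 by total counts and 1.0 by upper quartiles. Gpx1, the abundant cytosolic selenoenzyme, had 2140 and 3080 counts, 1.4-fold higher (1.33 to 1.48). Gpx4, which reduces lipid hydroperoxides in membranes and restrains ferroptosis, had 3052 and 3132 counts, a ratio of 1.0 (0.952 to 1.05). Its pseudogene Gpx4-ps2 shares 34.7% of its 50-base stretches and had 523 and 512 counts, so the value is uncertain. Gpx3, the secreted plasma form that kidney tubules produce, had 13 and 20 counts, and its interval contained 1 (0.711 to 3.28).

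Peroxiredoxins, which reduce hydrogen peroxide with electrons from thioredoxin, summed to 1258 and 1694 CPM. Prdx1 made up most of that gap. This cytosolic family member lies on chromosome 4 from 116685544 to 116700822 and had 6693 and 12563 counts, 1.83-fold higher (1.78 to 1.89). Per kilobase it ranked 2nd of 42 in the control library and 1st in the AI662270 library. Prdx4, the family member of the endoplasmic reticulum, had 977 and 1606 counts, 1.60-fold higher (1.48 to 1.74). Prdx2 had 2714 and 3517 counts, 1.26-fold higher (1.20 to 1.33), but it overlaps the early response gene Junb, at 5146 and 2261 counts, on the opposite strand. The mitochondrial Prdx3 had 1745 and 1713 counts and Prdx5 2376 and 2569, and both intervals contained 1. Prdx6, which also carries phospholipase activity, had 4626 and 4430 counts, 1.07-fold lower (1.03 to 1.12). None of the 6 passed the size rule, where 5.59% of all measured genes were higher and 5.72% lower. The number above 0 was 4 with TMM or DESeq2 scaling and 5 by total counts or upper quartiles. Of all measured genes 48.7% lay above 0 with TMM scaling.

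All 5 glutathione transferases, which couple glutathione to electrophiles, had log2 ratios below 0 with TMM scaling, where 48.7% of all measured genes lay above 0. With the other 3 scalings it was 4 of 5, since Gsto1 had 1553 and 1554 counts. Gstm2 was the member past the rule. It lies on chromosome 3 from 107981702 to 107986453 and had 242 and 87 counts, or 15.9 and 5.58 CPM, 2.85-fold lower (2.22 to 3.69). Its neighbour Gstm1, from 108012255 to 108017973, had 2485 and 1677 counts, 1.52-fold lower (1.43 to 1.62). On the other flank Gstm3, the nearest listed Gstm gene, had 6 and 0 counts and fell under the 1 CPM filter. Further out Gstm7 had 19 and 20 counts, too few to place, and Gstm5 458 and 621, a log2 ratio of 0.40. Not every measured gene of the cluster was therefore lower. Gstm genes are close copies: 18.9% of the 50-base stretches of Gstm1 and 5.65% of those of Gstm2 occur in other genes, and reads may have been shared between them. Gsta4, which clears the lipid peroxidation product 4-hydroxynonenal, had 146 and 98 counts, 1.53-fold lower (1.17 to 1.99). Gstt1 had 309 and 287 counts, with an interval that contained 1.

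The suppliers of NADPH, like the glutathione enzymes, differed little. G6pdx and Pgd encode the dehydrogenases of the oxidative pentose phosphate pathway. G6pdx had 1552 and 1713 counts, 1.08-fold higher (1.005 to 1.15), and it overlaps Ikbkg. Pgd had 1677 and 2356 counts, 1.37-fold higher (1.29 to 1.46). The nonoxidative enzymes differed by less than that: Taldo1 had 3058 and 3071 counts and Tkt 8751 and 8628, with log2 ratios of -0.03 and -0.06. Me1, the cytosolic malic enzyme, had 1670 and 1888 counts, 1.10-fold higher (1.03 to 1.18), and 28.3% of its 50-base stretches occur in other genes. All 5 lay within 1.5-fold, against 72.2% of all measured genes and 65.9% of the antioxidant genes.

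A further 100 genes of the same pathways were listed with earlier results known, 79 of them measured. Of these 7 were higher (8.86%), 10 lower (12.7%) and 62 neither, against 5.59% higher and 5.72% lower among all measured genes. The higher share rests in part on Anpep and Msrb2, which stood at 0.526 and 0.921 CPM in the control library. Both entered the measured genes only through the AI662270 library. Under the stricter 5 CPM filter the list held 5 higher and 9 lower genes. The shares of all genes given above do not apply to that filter, and none was computed for it. Of 11 measured genes of cysteine and glutathione supply and breakdown 4 were lower and 2 higher. Chac1, a glutathione-degrading enzyme gene, had 2617 and 363 counts (7.39-fold lower, 6.62 to 8.27), and Cth, which makes cysteine from cystathionine, had 924 and 134 (7.07-fold lower, 5.89 to 8.54). The cystine transporter subunits Slc7a11 and Slc3a2 had 1492 and 260 counts and 7928 and 2867 counts, 5.88-fold (5.15 to 6.74) and 2.83-fold (2.72 to 2.96) lower. Slc7a11, Cth and Chac1 were already known to be low in these data, so their place in the list is no independent evidence of its direction. In the same list Ggt7 had 94 and 289 counts (3.0-fold higher, 2.37 to 3.83) and Anpep 8 and 39 (4.76-fold higher, 2.19 to 11.8).

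The counts for the short lists below stand beside shares of 5.59% higher and 5.72% lower among all measured genes. Of 9 further regulators 2 were lower and 0 higher, both of them small MAF genes. Maff had 2456 and 835 counts, 3.01-fold lower (2.79 to 3.26), and Mafk 1554 and 747, 2.13-fold lower (1.95 to 2.33). Sqstm1, whose product p62 binds KEAP1, had 7335 and 4108 counts (log2 ratio -0.87), and Cul3, the ubiquitin ligase scaffold of KEAP1, had 2380 and 2376. Of 13 thioredoxin partners, glutaredoxins and repair genes 3 were higher and 2 lower. Txnip, an inhibitor of thioredoxin, had 3996 and 1770 counts, 2.31-fold lower (2.19 to 2.45), and Sesn2, a stress-induced sestrin, 1350 and 614, 2.25-fold lower (2.05 to 2.48). Glrx, the cytosolic glutaredoxin, had 104 and 251 counts, 2.35-fold higher (1.87 to 2.99), and the methionine sulfoxide reductase Msrb2, with 14 and 81 counts, 5.65-fold higher (3.18 to 10.8). The third higher gene was the sestrin Sesn1, with 193 and 418 counts. Of 12 listed peroxidase, selenoprotein and selenoprotein synthesis genes, the peroxidases Gpx2, Gpx5 and Gpx6 had 0 counts in both libraries. Of the other 9, all measured, 1 was higher. Selenop, the secreted selenium carrier, had 36 and 174 counts, 4.72-fold higher (3.28 to 6.95). Of 10 further NADPH genes 1 was higher and 2 lower. The pentose phosphate isomerase Rpia had 789 and 274 counts, 2.95-fold lower (2.57 to 3.40). The mitochondrial malic enzymes split, with Me2, at 1007 and 2360 counts, 2.29-fold higher (2.12 to 2.46) and Me3, at 62 and 19 counts, 3.34-fold lower (1.97 to 5.92).

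**Figure D4:**
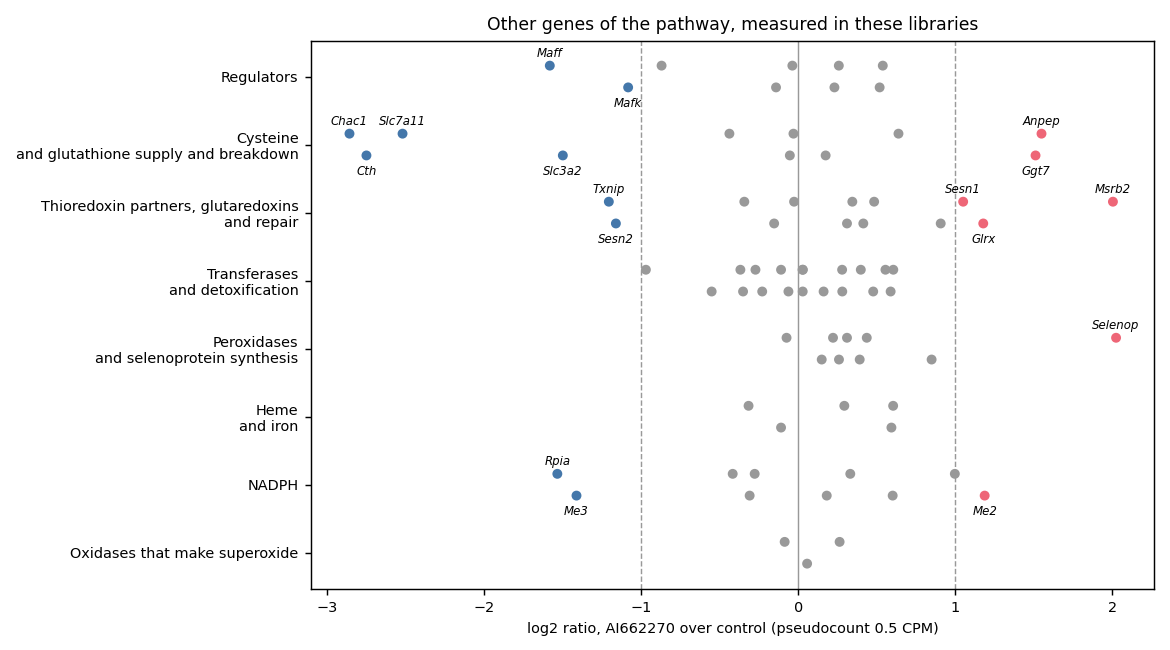
Log2 ratios (AI662270 over control, 0.5 CPM added) of the 79 measured pathway genes outside the set of 42, by list, with dashed lines at 1 and -1 and names for genes past the size rule (red higher, blue lower). The cysteine and glutathione list reaches from -2.86 for Chac1 to 1.55 for Anpep, and 0 of 19 measured transferase and detoxification genes passed.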

How the data were processed

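RNA of 2 sublines was measured, 1 library per group, grouped by sample title. Columns headed Lv_Con were taken as the control titled Lv_NC. Build mm10, CASAVA 1.4 and TopHat2 are listed in the submitters' processing notes, and no source used here gives the read counter, annotation release or strand setting. The authors deposited whole read counts per gene. Their FPKM values, their signal columns (counts rescaled by the authors), and their log2 fold changes were not used. The authors' deposited adjusted p-values are used only to count and name genes under 0.05. All 42 genes had the coordinates of GENCODE M21, and the deposited length equalled the merged exon length for 41.

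Counts were scaled over the whole table with TMM factors of edgeR 4.0.16 in R 4.3.3 (0.967 control, 1.03 AI662270). Log2 ratios had 0.5 CPM added, and folds had none and took Clopper-Pearson intervals at 95%, in Python 3.11.15 with scipy 1.17.1. No test between groups and no p-value across genes was computed. Levels per kilobase used the deposited gene length. Sequence shared between genes was counted as 50-base stretches of GENCODE transcripts found in another gene on either strand.

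Alternatives were 3 other scalings (DESeq2 1.42.0 among them), pseudocounts of 0.1 and 2 CPM, no filter, means of at least 5 or 50 CPM (the last added after seeing the data), and thresholds of 1.5-fold and 3-fold. The genes and lists were chosen with earlier results of these data known. All 42 genes are named, and of the other pathway genes the rule took the 16 that passed with the largest changes in size. Sesn1, the only other one that passed, and a few that did not were named after their values were seen. Some overlapping genes and markers are not reported here.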

Additional observations from a re-analysis of the deposited data

How the results depend on the processing

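The direction of 0 calls turned under the alternatives run, and 269 of 287 values of single genes under 7 alternatives stayed on their side of the rule. Of the rest, 7 lost a call and 11 gained one. Since 36 of the 41 genes had no call to lose, the 269 say little about the stability of the calls. Genes higher numbered 1 as reported, 2 by total counts, 2 by upper quartiles (Gpx8 added at 1.03 and 1.0), 7 at a threshold of 1.5-fold and 0 at a mean of at least 50 CPM, a level Sod3 did not reach. Genes lower numbered 4 as reported, 3 with each other scaling (without Nfe2l1), 7 at 1.5-fold, 0 at 3-fold and 1 at 50 CPM. The median ran from 0.04 (at least 5 CPM) to 0.17 (total counts). Other pathway genes higher numbered 7 as reported, 16 at 1.5-fold, 2 at 3-fold and 1 at 50 CPM, and those lower 10, with 3 at 3-fold. Thresholds and filters change these counts by construction. By the log2 ratio alone 72.2% of all measured genes lay within 1.5-fold, against 65.9% of the antioxidant genes and 64.6% of the other pathway genes. At a mean of at least 50 CPM 1.30% of all genes were higher and 5.20% lower. Shares over all genes were not computed at 3-fold, at 5 CPM or with the other scalings, so those counts have no background here. No paired analysis was possible because each group has 1 library. No replicate could be left out for the same reason. Counts under about 50, as for Sod3, Gpx3, Anpep and Msrb2 in the control library, leave wide intervals.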

Other observations

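In the lists for oxidases, for selenium, and for heme and iron, 0 of 3, 1 of 9 and 0 of 5 measured genes passed the size rule. Selenop was the gene that passed. Among all measured genes 5.59% were higher and 5.72% lower. Of 9 oxidase genes 3 were measured: Cyba, a membrane subunit of NADPH oxidases, had 1741 and 2143 counts, Nox4, the oxidase most studied in mesangial cells, 149 and 159, and Xdh, xanthine dehydrogenase, 383 and 369. Their log2 ratios were 0.26, 0.06 and -0.09, and Cybb, the phagocyte oxidase gene, had 0 counts in both libraries. Of the listed genes for making selenoproteins, Sephs1, Sephs2, Secisbp2 and Eefsec had log2 ratios of 0.22, 0.39, 0.44 and 0.15, all short of the rule. Sepsecs, another gene of selenocysteine synthesis, was not in the list and lay below 0 (-0.31, with 540 and 445 counts). Fth1, the ferritin heavy chain and an NRF2 target, had 12859 and 19888 counts (log2 ratio 0.59), and Ftl1, its light chain, 1178 and 1481 (0.29). Blvra, the biliverdin reductase that acts after heme oxygenase, had 520 and 814 counts (log2 ratio 0.60). The other genes of heme and iron lay below 0, with 782 and 642 counts (-0.32) for Hmox2 and 248 and 235 (-0.11) for Blvrb. The genes in this paragraph were picked after their values were seen.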
